A study of Mus musculus with 4514 samples.

Results

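Hepatocytes sorted for surface proteins of the 2 ends of the liver lobule were compared in 4 poly(A) RNA-seq libraries, chosen by their labels: 2 of CD73+ hepatocytes, labelled CV, and 2 of CD324+ hepatocytes, labelled PV. They are 4 of the 4514 samples of a mouse series made up mostly of single hepatocytes and single nuclei. All 4 came from liver of Alb-Cre; Rosa-tdTomato mice at postnatal day 60 (P60). In such mice the albumin promoter drives the recombinase, so that hepatocytes carry the red reporter. No treatment is given, and no label names an animal or a pool of animals. Another 2 libraries of cells that carried neither surface protein (CD324-;CD73-, labelled ML) had the same genotype and age and were used for reference, as were 352 single P60 hepatocytes sorted by DNA content, 35.5% as 2N, 40.9% as 4N and 23.6% (83 cells) as 8N.

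Blood enters the liver lobule at the portal vein and leaves at the central vein, and hepatocytes along that path hold graded amounts of oxygen, nutrients and enzymes, which is called zonation. Portal hepatocytes are known for urea synthesis, gluconeogenesis and secretion of plasma proteins, and central ones for glutamine synthesis, bile acid synthesis and drug metabolism, with Wnt signals from the central vein as a main driver. CD73, an ecto-enzyme that makes adenosine, is encoded by Nt5e, and CD324 is E-cadherin, an adhesion protein encoded by Cdh1.

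The CD73+ libraries held 13144208 and 14596435 counts and the CD324+ libraries 13889655 and 22729462 (18143472 and 16049840 in the CD324-;CD73- libraries). Levels are in CPM, counts scaled to a common library size, which was adjusted by TMM so that a few very abundant genes do not set the scale. In each pair of values the first is replicate 1. CPM of a long and a short gene are not comparable, so only differences between libraries were read. Differences are log2 values, CD73+ minus CD324+. Each has a standard error and a p from a two-sided quasi-likelihood F test in edgeR, adjusted over all 10984 genes tested. Since the 2 libraries of a group may share an animal, each p reflects library-to-library spread alone, and that spread may be technical. Bulk libraries cannot tell apart fewer cells of a type from less RNA per cell.

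Both sorting markers followed the CD73+ and CD324+ labels, while Cdh1 did not follow the CD324- label of the reference libraries. Nt5e (GRCm38 chr9:88327197-88372092, plus strand) stood at 6.94 and 6.33 CPM in the CD73+ libraries and 0.154 and 0.0467 CPM in the CD324+ libraries, from 100 and 100 counts against 2 and 1. The CD324-;CD73- libraries held 0.113 and 0.381 CPM. No CD324+ library came near a CD73+ one, and the ratio of the summed counts was 75.9 (95% counting interval 25.6 to 371), with an adjusted p of 1.51e-06. It was 141.8 without CD324+ replicate 1 and 42.95 without CD324+ replicate 2, in which 1 and 2 CD324+ counts were left. Cdh1 (chr8:106603351-106670246, plus strand) was 0.972 and 0.190 CPM in the CD73+ libraries and 15.2 and 13.8 CPM in the CD324+ libraries, and 11.2 and 12.1 CPM in the CD324-;CD73- libraries, whose label says that they lack the protein. The Cdh1 difference was -4.66 ± 0.33, adjusted p = 1.41e-07. It was -6.19 without CD73+ replicate 1 and -3.89 without CD73+ replicate 2.

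The hepatocyte label was met by albumin and other plasma proteins, though not at equal levels. Alb stood at 27114 and 25618 CPM in the CD73+ libraries, 78502 and 75701 in the CD324-;CD73- libraries and 90898 and 91759 in the CD324+ libraries, a log2 difference of -1.79 ± 0.02, adjusted p = 1.53e-14. Apoa1 differed by -0.81 ± 0.02 and Ttr, which carries thyroxine, by -0.38 ± 0.02.

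At an adjusted p under 0.05, 1653 genes (15.05% of those tested) were higher in CD73+ cells and 1528 (13.91%) were lower, together 28.96%. At a difference of 2-fold or more these were 563 genes (5.13%) and 348 genes (3.17%). The median over all genes was 0.02. Of 35 classic pericentral genes, all 35 were higher, with a median log2 difference of 3.46 (unchanged with Sp5, which had no CD324+ count, at its lower bound). Of 29 classic periportal genes, all 29 were lower, with a median of -2.50. These genes are listed as classic because they are known to differ in this direction.

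Among them, Slc1a2, a glutamate transporter, was at 292.96 and 293.2 CPM in the CD73+ libraries and 0.0771 and 0 CPM in the CD324+ libraries, from a single CD324+ count, a ratio of 10080 (95% counting interval 1808 to 398000). That count lay in replicate 1. Without replicate 2 the ratio was 3801, and without replicate 1 the difference was at least 2092-fold. Glul, glutamine synthetase, was at 562 and 548 CPM against 20.6 and 17.9 CPM (4.86 ± 0.22). Oat, ornithine aminotransferase, was at 1737 and 1899 CPM against 33.1 and 4.58 CPM (6.68 ± 0.63; 8.63 without CD324+ replicate 1 and 5.78 without replicate 2). Lgr5, an R-spondin receptor, had a ratio of 133.9 (95% counting interval 45.5 to 653), which was 250.3 without CD324+ replicate 1 and 75.8 without replicate 2. Sp5, a Wnt-induced transcription factor, was at 3.06 and 1.20 CPM in CD73+ cells and had no count in CD324+ cells, at least 23.9-fold higher against a floor of 3 counts over the group. The bound was 13.8-fold without CD73+ replicate 1. Sp5 was called by edgeR (adjusted p = 0.000728) and not by DESeq2 (0.350). At the portal end, Sds, serine dehydratase, was at 1.87 and 1.58 CPM against 110.7 and 111.2 CPM (-6.00 ± 0.13), and Hal, histidine ammonia-lyase, at 29.6 and 24.3 CPM against 692 and 710.4 CPM (-4.70 ± 0.09).

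The core promoters of a few of these genes hold the 7-base element that TCF/LEF factors, the DNA-binding partners of beta-catenin, recognise. The stretches below show it in capitals within the 250 bases before a RefSeq start site, read 5′ to 3′ on the gene's strand (GRCm38.p6). That of Slc1a2 lies before a start site inside the gene, which GENCODE places at chr2:102658659-102790784, plus strand. They are shown because Sp5, Slc1a2, Lect2 and Cyp2c29 were among the classic genes higher in CD73+ cells, and Hal, a gene of the opposite end, held the element too.
Sp5 (chr2:70474789-70474855, plus strand): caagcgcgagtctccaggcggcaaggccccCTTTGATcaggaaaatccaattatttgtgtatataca
Slc1a2 (chr2:102706201-102706267, plus strand): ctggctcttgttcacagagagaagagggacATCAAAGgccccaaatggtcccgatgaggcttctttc
Lect2 (chr13:56548539-56548600, minus strand): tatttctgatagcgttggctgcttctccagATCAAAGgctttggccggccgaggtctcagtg
Cyp2c29 (chr19:39286936-39287002, plus strand): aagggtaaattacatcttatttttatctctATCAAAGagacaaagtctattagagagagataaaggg
Hal (chr10:93488539-93488605, plus strand): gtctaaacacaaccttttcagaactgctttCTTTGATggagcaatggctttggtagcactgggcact
The element, CTTTGAT or its reverse complement ATCAAAG on either strand, was in 4 of 25 classic pericentral genes with a promoter entry, in 2 of 22 classic periportal genes (9.09%) and in 2.76% of the 8187 tested genes with an entry. Over all 32851 windows the share was 3.21%. Among the genes named next it was in 0 of 13 higher and 1 of 12 lower genes with an entry (8.33%, Serpina12). A gene was counted when the window of any of its start sites held the element. A match describes letters in these windows only.

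Beyond the classic markers, a pool was formed of genes with an adjusted p under 0.05 that did not overlap between the 4 libraries. They were counted in at least 10% of the 352 single hepatocytes, lay in no list of another cell type and had no clone name. They also reached a mean of 10 CPM in the higher group or, for the lower genes, in CD324+ cells. The pool held 991 genes higher and 1165 genes lower in CD73+ cells. How many genes met all the other filters whatever their p was not counted, so these counts are not shares. With the filters on cell-type lists and single cells alone, 14.44% of genes were called higher and 14.98% lower. These shares were added after seeing the data and stand against 15.05% and 13.91% of all genes tested. Lower genes thus outnumbered higher ones before the remaining filters. A lack of overlap between so few libraries is a weak criterion by itself. The 15 genes of the pool with the largest difference in each direction are described here by role.

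Lipid handling was the role of 4 of the 15 higher genes. Lpl, lipoprotein lipase, which frees fatty acids from circulating triglyceride, was at 22.7 and 13.4 CPM in the CD73+ libraries and 0.386 and 0.0934 CPM in the CD324+ libraries (log2 difference 6.40 ± 0.56, adjusted p = 1.15e-06). Pparg, a fatty acid-sensing nuclear receptor best known in adipocytes, was at 12.3 and 10.8 CPM against 0.848 and 0 CPM (5.09 ± 0.57, adjusted p = 1.2e-05). Cd36, a fatty acid uptake receptor, was at 50.7 and 55.9 CPM against 1.77 and 1.73 CPM (4.93 ± 0.17, adjusted p = 7.85e-11). The CD324-;CD73- libraries held 2.21 and 1.40 CPM of Cd36, no more than the CD324+ libraries within their spread. Endothelial cells and macrophages also make Cd36, and their part in its difference was not tested. Fitm1, an endoplasmic reticulum protein of lipid droplet formation, was at 68.3 and 82.6 CPM against 4.24 and 1.03 CPM (5.04 ± 0.32, adjusted p = 4.12e-08). Each of these 4 genes had both CD73+ libraries far above both CD324+ libraries.

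Of the other higher genes, 3 encode cytochrome P450 enzymes. The genes Cyp2c38, Cyp2c69 and Cyp2a22 were at 224.6 and 257.2 CPM against 9.33 and 0.280 CPM, 174.3 and 219.7 CPM against 8.87 and 4.39 CPM and 14.03 and 9.81 CPM against 0.386 and 0.561 CPM. Their log2 differences were 5.95 ± 0.49, 4.98 ± 0.26 and 4.58 ± 0.34, and near-identical neighbours in both families make the assignment of reads to a member uncertain. Gstm2, a glutathione S-transferase, was at 166.6 and 189.7 CPM against 14.7 and 4.62 CPM (4.34 ± 0.28, adjusted p = 3.87e-08). Serpina7, thyroxine-binding globulin, was at 14.9 and 12.5 CPM against 0.694 and 0.374 CPM (4.76 ± 0.29, adjusted p = 2.46e-08) and at 0.397 and 0.444 CPM in the CD324-;CD73- libraries, the only one of the 15 to lie below both ends on average. Npr2, the receptor guanylyl cyclase for C-type natriuretic peptide, was at 37.4 and 41.5 CPM against 1.77 and 0.467 CPM (5.32 ± 0.29, adjusted p = 8.42e-09).

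The largest difference of the 15 belonged to Lhpp, a phosphatase of phosphohistidine, at 79.2 and 90.9 CPM in the CD73+ libraries and 1.47 and 0.234 CPM in the CD324+ libraries (log2 difference 6.90 ± 0.30, adjusted p = 7.66e-10). The others were Mup15, a major urinary protein (6.65 ± 0.90), Cib2, a calcium- and integrin-binding protein (5.24 ± 0.40), Susd4, a complement inhibitor (4.41 ± 0.27), and Nxpe2 (4.37 ± 0.19). Mup15 spread most, at 741 and 129.2 CPM in the 2 CD73+ libraries and 9.87 and 0.467 CPM in the CD324+ libraries. In CD324+ cells, 14 of the 15 genes were higher in replicate 1 than in replicate 2, as were 33 of the 35 classic pericentral genes, against 49.4% of all genes tested. Without CD324+ replicate 1 several differences were larger: 8.46 for Lhpp, 9.83 for Mup15, 7.48 for Lpl, 9.71 for Cyp2c38, 6.37 for Npr2, 6.41 for Cib2, 6.18 for Fitm1 and 5.26 for Gstm2. For Pparg no CD324+ count was then left. Leaving out replicate 2 gave 5.85, 5.46, 5.51, 4.69, 4.46, 4.32, 4.15 and 3.60 for the same genes and 3.75 for Pparg. Without CD73+ replicate 1 the difference of Mup15 was 4.93, and without CD73+ replicate 2 it was 7.45. All 15 passed the threshold with any 1 of the 4 libraries left out.

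At the other end, several of the 15 lower genes act on small metabolites. Cryl1, a dehydrogenase of L-gulonate, was at 1.18 and 0.443 CPM in the CD73+ libraries and 31.5 and 37.8 CPM in the CD324+ libraries (log2 difference -5.44 ± 0.24, adjusted p = 1.07e-09). Bdh2, a cytosolic hydroxybutyrate dehydrogenase, was at 2.71 and 2.09 CPM against 41.7 and 40.5 CPM (-4.10 ± 0.17, adjusted p = 5.86e-10). Sfxn1, the mitochondrial serine transporter, was at 13.7 and 9.31 CPM against 165.7 and 176.6 CPM (-3.90 ± 0.13, adjusted p = 5.06e-11), and Aspg, an asparaginase, at 5.28 and 4.68 CPM against 42.5 and 42.8 CPM (-3.10 ± 0.10, adjusted p = 6.72e-11). For Sfxn1 and Aspg the CD324-;CD73- libraries, at 145.2 and 165.8 and 45.9 and 42.5 CPM, lay beside the CD324+ ones. The conjugating and sterol enzymes among them were Sult5a1, a sulfotransferase, at 0.764 and 0.633 CPM against 17.3 and 24.2 CPM (-4.89 ± 0.25, adjusted p = 5.51e-09), and Cyp39a1, an oxysterol hydroxylase of bile acid synthesis, at 4.37 and 3.29 CPM against 42.2 and 47.7 CPM (-3.56 ± 0.13, adjusted p = 1.66e-10).

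The remaining lower genes had varied roles. Serpina12, the adipokine vaspin, was at 17.2 and 14.9 CPM against 150.4 and 164.5 CPM (-3.30 ± 0.08, adjusted p = 3.59e-12), Nrg4, a ligand of the receptor ErbB4, at 2.78 and 3.10 CPM against 23.4 and 26.7 CPM (-3.09 ± 0.15, adjusted p = 2.81e-09), and Mup20, the male urinary pheromone darcin, at 1731 and 1721 CPM against 13479 and 16774 CPM (-3.13 ± 0.09, adjusted p = 1.17e-11). Mt2, a metallothionein that binds zinc, was at 5.90 and 8.29 CPM against 60.7 and 64.1 CPM (-3.13 ± 0.17, adjusted p = 1e-08), and Gas2, a protein of the actin cytoskeleton, at 6.18 and 7.03 CPM against 73.95 and 78.3 CPM (-3.52 ± 0.09, adjusted p = 5.73e-12). Rasgef1b, an exchange factor for small GTPases, differed by -4.46 ± 0.29, Cib3, a relative of Cib2, by -4.41 ± 0.31, Fam46c, a poly(A) polymerase, by -3.79 ± 0.26, and Arsg, a lysosomal sulfatase, by -3.62 ± 0.21. Cib2 and Cib3 are thus a pair of related genes with opposite differences. Without CD73+ replicate 1 the differences of Cryl1, Cib3 and Rasgef1b were -6.27, -5.23 and -5.10.

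**Figure D1:**
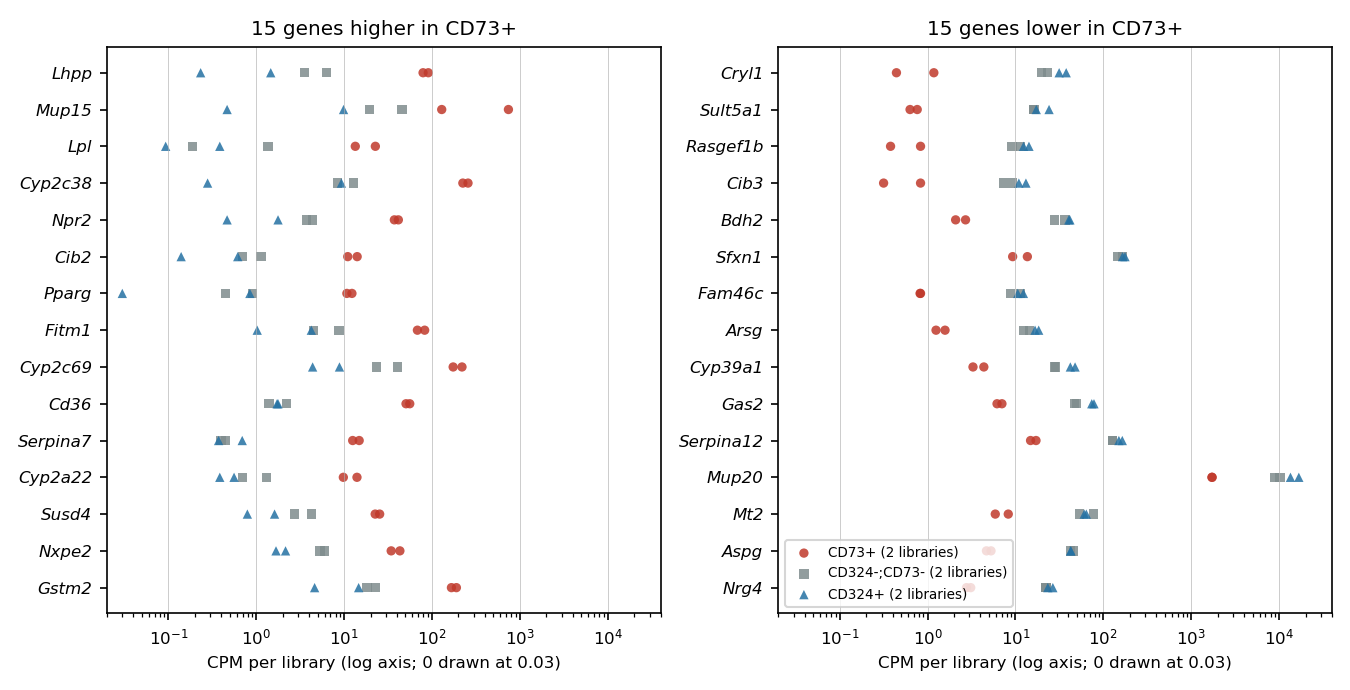
CPM in each of the 6 libraries (log axis, a value of 0 drawn at 0.03) for the 15 genes with the largest positive (left) and negative (right) differences, with CD73+ as circles, CD324-;CD73- as squares and CD324+ as triangles. In every row the 2 CD73+ points stand apart from the triangles, and the mean of the squares is nearer to that of the triangles on a log2 scale, as for Cd36 (2.21 and 1.40 CPM against 1.77 and 1.73 CPM).

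Transcripts known from other liver cells were counted in the CD73+ libraries, and the lists of those lineages were therefore left out of the hepatocyte groups below. Dcn, decorin of stellate cells and fibroblasts, was at 56.3 and 68.9 CPM in the CD73+ libraries and 0 and 0.0467 CPM in the CD324+ libraries, and Colec11 at 6.94 and 6.77 CPM against 0 and 0 CPM, at least 78.5-fold higher against the floor of 3 counts. The Kupffer cell genes Clec4f, Cd5l and Vsig4 were at 3.89 and 2.60, 4.51 and 1.58 and 2.99 and 2.22 CPM and had no count in the CD324+ or CD324-;CD73- libraries, at least 36.8-, 34.1- and 29.6-fold. Lyz2 was at 9.44 and 1.71 CPM and had no CD324+ count (at least 61.9-fold). Most of its counts were in CD73+ replicate 1, without which the bound was 19.6-fold, and that of Cd5l 18.1-fold. Leaving out a CD324+ library lowers such bounds through the floor alone, for Lyz2 to 38.5- and 23.3-fold. Stab2, of sinusoidal endothelium, was at 16.9 and 11.4 CPM against 2.005 and 2.01 CPM (2.81 ± 0.31), and Kdr at 2.29 and 1.77 CPM against 0.231 and 0 CPM, a ratio of 23.1 (95% counting interval 7.56 to 115.3) that was 8.73 and not called without CD324+ replicate 2 (adjusted p = 0.0554). DESeq2 called neither Kdr (adjusted p = 0.297) nor Cd5l (0.305).

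Of the endothelial list, 44 of 110 genes were tested, 27 of them higher and 1 lower. Of the macrophage list 25 of 71 were tested, 16 higher and 1 lower, and of the stellate list 22 of 63, 17 higher and 3 lower. Without CD73+ replicate 1, 12 endothelial and 10 macrophage genes were higher, and without CD324+ replicate 2, 17 endothelial genes. Many of these passed the filter on low counts only through the CD73+ libraries, so these counts describe what was tested and are not a share of the lineage. Summed over the whole list, endothelial genes made 328.999 and 206.9 CPM in the CD73+ libraries and 110.8 and 94.3 CPM in the CD324+ libraries. The macrophage sums were 151.4 and 97.6 CPM against 210.4 and 205.7 CPM. Ccl9, a chemokine of that list counted in 87.50% of single hepatocytes, was at 21.1 and 19.6 CPM against 158.5 and 154.6 CPM. The stellate sums were 462 and 489 CPM against 345.4 and 342.5 CPM.

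In CD73+ cells 7 endothelial genes, 7 of 69 macrophage and 12 of 63 stellate genes had no count in either library, against 29, 42 and 42 in CD324+ cells. Col1a1 had no count in any of the 6 libraries, and Marco had 2 counts in CD73+ replicate 1 only. Pecam1 and Cdh5 were at 1.04 and 0.317 CPM and at 2.15 and 0.507 CPM in the CD73+ libraries. Of the 20 bile duct genes listed 5 were tested, 2 of them lower and 3 not called. Spp1, the first, was at 0.0694 and 0.127 CPM against 3.93 and 14.7 CPM and at 0.680 and 47.3 CPM in the CD324-;CD73- libraries, and Sox9 at 0.972 and 0.633 CPM against 5.32 and 7.10 CPM (-2.97 ± 0.32, adjusted p = 1e-05). Spp1 was no longer called without either CD73+ library (adjusted p = 0.0891 and 0.0918) or without CD324+ replicate 2 (0.125). Epcam and Krt19, which define bile duct cells, had 0 counts in the CD73+ libraries and 1 and 6 counts in CD324+ replicate 2, while Krt7 had 1 count in each CD73+ library and 0 in the CD324+ libraries.

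Of the 563 genes at least 2-fold higher in CD73+ cells, 60 lay in a list of another cell type, 83 were counted in under 1% of single hepatocytes, and 58.08% were both outside those lists and counted in at least 10% of single hepatocytes. The last share is called hepatocyte-detected below. Of the 348 lower genes, 6 and 1 fell in the first classes, and 85.63% were hepatocyte-detected. Of all 10984 genes tested, 98 and 170 fell in those classes and 89.03% were hepatocyte-detected. The lower genes were thus near the share of all genes, and the higher genes were below it. The part of other cells in any single difference was not tested.

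**Figure D2:**
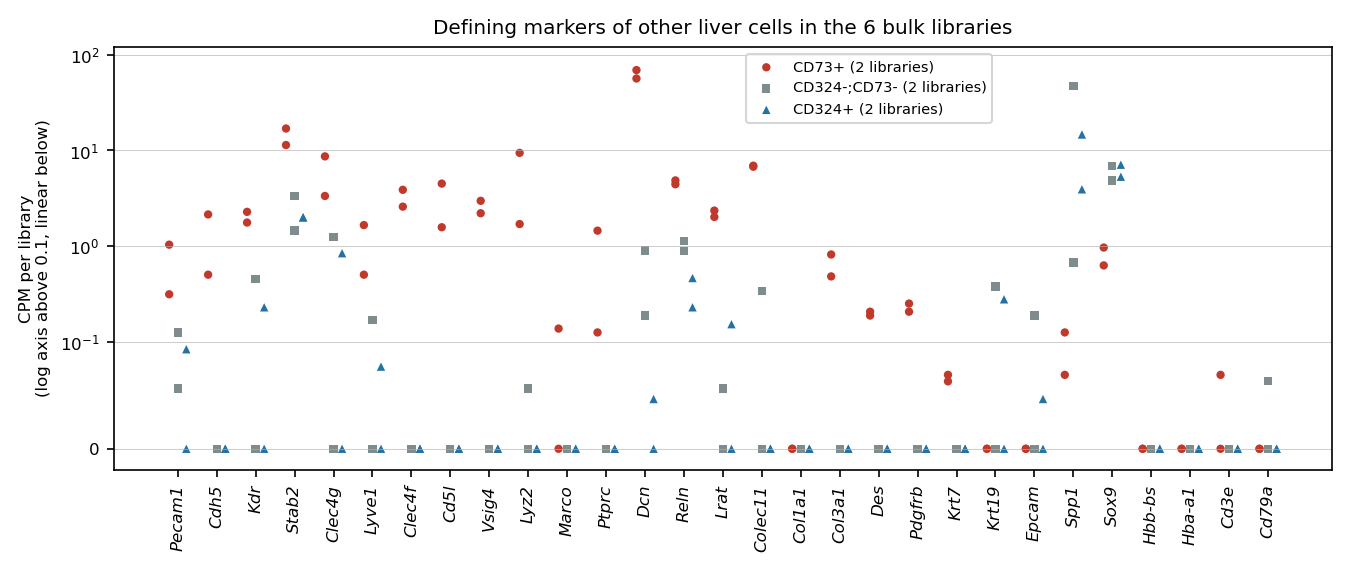
CPM in each library (log axis above 0.1, linear below) of genes that define other liver cells, ordered as endothelial, macrophage, stellate and fibroblast, bile duct, blood and lymphocyte. Circles (CD73+) hold Dcn at 56.3 and 68.9 CPM and Clec4f at 3.89 and 2.60 CPM, while triangles (CD324+) hold Spp1 at 3.93 and 14.7 CPM.

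Of the role lists with 10 or more genes tested, fatty acid breakdown had the largest share higher in CD73+ cells: 22 of 38 genes tested were higher and 6 lower, with a median log2 difference of 0.35. Counts of called genes in this and the following lists stand against 15.05% higher and 13.91% lower of all genes tested. Acot1 and Acot2, thioesterases that release fatty acids from coenzyme A, were at 44.8 and 39.1 CPM against 2.85 and 2.71 CPM (3.92 ± 0.15, adjusted p = 2.32e-10) and 6.94 and 5.51 CPM against 1.002 and 0.841 CPM (2.77 ± 0.32, adjusted p = 2.04e-05). Pdk4, the kinase that shuts pyruvate out of the citric acid cycle, was at 6.67 and 3.10 CPM against 0.694 and 0 CPM (4.10 ± 0.76; 3.41 without CD73+ replicate 1 and 2.79 without CD324+ replicate 2, and no count left without CD324+ replicate 1). With DESeq2 Pdk4 was not called (adjusted p = 0.113). Against the direction of the list, Acadvl, Acox2 and Creb3l3 had differences of -0.37 ± 0.08, -0.40 ± 0.06 and -0.34 ± 0.06. Ppara, the receptor that controls this pathway, was at 61.9 and 58.5 CPM against 45.7 and 42.9 CPM (0.45 ± 0.07, adjusted p = 0.00036).

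Respiratory chain genes went the other way by small amounts. Of 69 nuclear genes of oxidative phosphorylation, 52 were lower and 1 higher, with a median of -0.26. Atp5g1, a subunit of ATP synthase, was at 226.5 and 227.3 CPM against 403 and 403 CPM (-0.83 ± 0.06, adjusted p = 9.92e-08), Cox7b, of cytochrome oxidase, at 296.2 and 291.9 CPM against 442 and 434 CPM (-0.57 ± 0.06, adjusted p = 5.21e-06), and Sdhd, of succinate dehydrogenase, at 195.3 and 178.7 CPM against 308.6 and 318.9 CPM (-0.75 ± 0.06, adjusted p = 7.66e-07). The 1 higher gene, Ndufa7, differed by 0.17 ± 0.06 and was not called without any 1 of the 4 libraries (adjusted p from 0.0586 to 0.209).

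Sugar metabolism genes were more often lower than higher: 13 of 27 genes were lower and 3 higher, with a median of -0.46. Khk, fructokinase, was at 193.5 and 187.6 CPM against 458 and 469 CPM (-1.28 ± 0.06, adjusted p = 1.07e-09) and Pklr, liver pyruvate kinase, at 29.6 and 27.5 CPM against 58.8 and 64.3 CPM (-1.11 ± 0.08, adjusted p = 1.89e-07). Higher were Pfkfb3 and Pfkfb1, enzymes that set fructose 2,6-bisphosphate, by 1.82 ± 0.36 and 0.62 ± 0.06, and Sord, sorbitol dehydrogenase, by 0.50 ± 0.05. For fatty acid and triglyceride synthesis 7 of 30 were higher and 10 lower (4 higher without CD73+ replicate 1 or CD324+ replicate 2, and 6 lower without CD324+ replicate 1). Acly, which makes cytosolic acetyl-coenzyme A, was at 21.4 and 19.499 CPM against 68.2 and 72.6 CPM (-1.79 ± 0.07, adjusted p = 5.86e-10), while Elovl3, an elongase, was at 509 and 577 CPM against 108.4 and 89.8 CPM (2.46 ± 0.09, adjusted p = 2.5e-10).

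Secreted plasma proteins were the other large block on the CD324+ side. Of 45 complement and coagulation genes 34 were lower and 4 higher (median -0.61), and of 42 acute phase and other plasma protein genes 30 were lower and 4 higher (median -0.69). The fibrinogen chains Fga, Fgb and Fgg differed by -1.04 ± 0.04, -0.90 ± 0.03 and -1.04 ± 0.04, and C9, a pore-forming complement component, was at 407 and 424 CPM against 1209 and 1241 CPM (-1.56 ± 0.05, adjusted p = 4.62e-11). Hpx, which binds free haem, was at 2039.5 and 2182 CPM against 9690.2 and 10163 CPM (-2.23 ± 0.04, adjusted p = 8.61e-14), Mug2, a protease inhibitor, at 121.5 and 122.9 CPM against 544 and 533 CPM (-2.14 ± 0.06, adjusted p = 8.99e-12), and Lcn2, which binds bacterial iron carriers, at 18.1 and 20.6 CPM against 64.9 and 73.5 CPM (-1.84 ± 0.19, adjusted p = 7.02e-06). C6 (1.34 ± 0.08), F5 (0.66 ± 0.06), Pros1 (0.55 ± 0.09), Igfbp1 (1.20 ± 0.07) and Serpina6, the corticosteroid carrier (0.66 ± 0.06), were higher in CD73+ cells. Members of one assembly, the membrane attack complex, differed in opposite directions, with C6 at 499.8 and 586 CPM against 224.2 and 204.2 CPM and its partner C8a at 291.1 and 284.4 CPM against 632 and 647 CPM (-1.15 ± 0.05).

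The secretory machinery differed less. Of 25 unfolded protein response and secretion genes 8 were lower and 1 higher (median -0.11), with 4 lower and none higher without CD324+ replicate 2. Herpud1, Pdia6 and Pdia3, which serve folding and disposal in the endoplasmic reticulum, had differences of -0.69 ± 0.04, -0.66 ± 0.07 and -0.51 ± 0.06, and Xbp1, a transcription factor of that response and 1 of the 4 factors knocked out elsewhere in the series, was at 185.2 and 189.04 CPM against 236.9 and 237.96 CPM (-0.34 ± 0.06, adjusted p = 0.000517). Ddit3, the 1 higher gene (0.37 ± 0.11), was not called without CD73+ replicate 1 (adjusted p = 0.221), CD324+ replicate 1 (0.120) or CD324+ replicate 2 (0.0730).

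**Figure D3:**
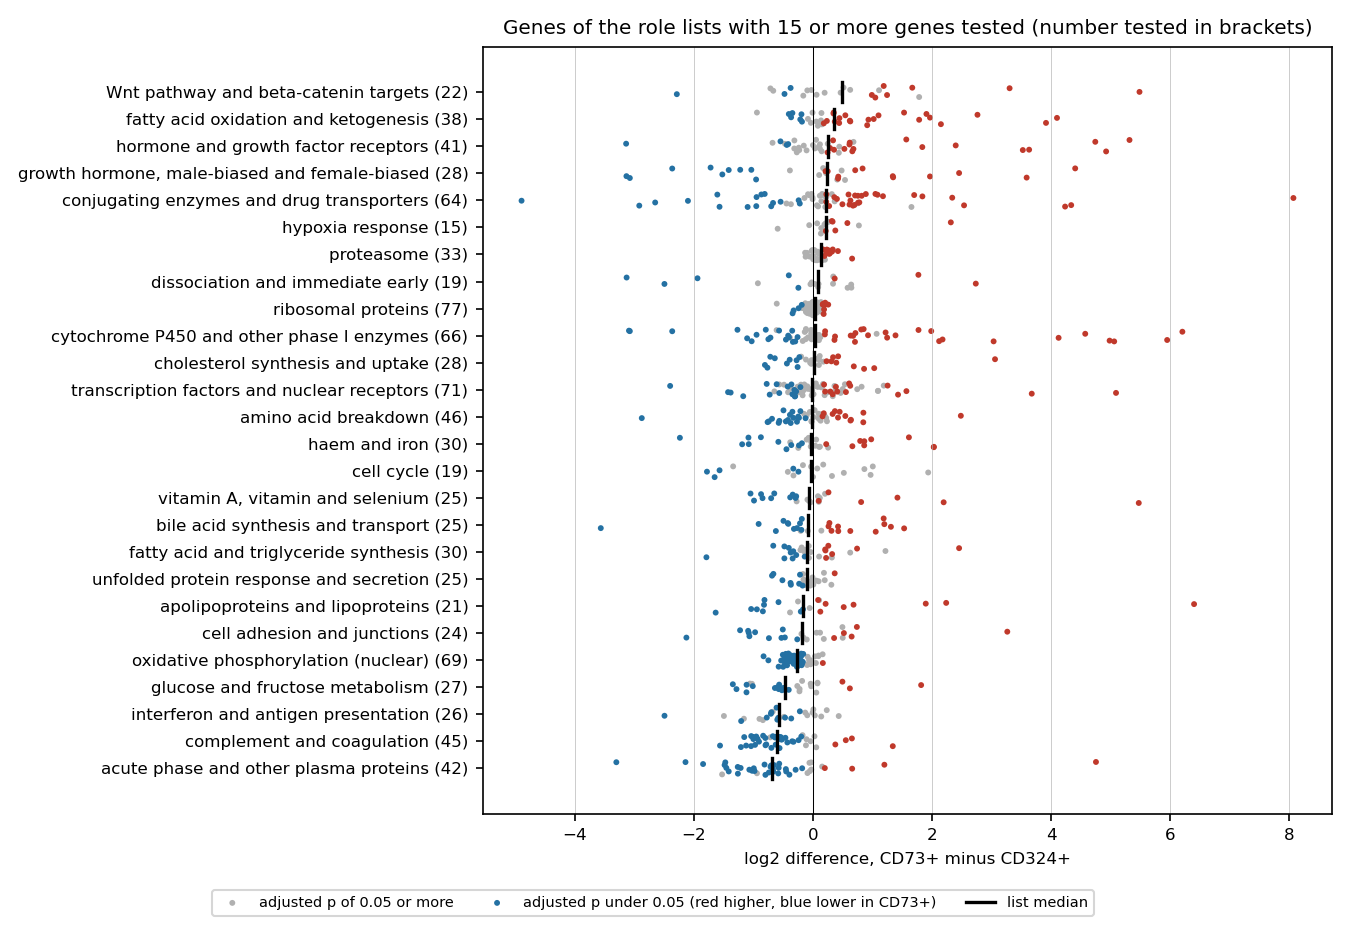
Log2 difference (CD73+ minus CD324+) of every gene tested in the role lists with 15 or more such genes, 1 point a gene, coloured where the adjusted p was under 0.05, with the list median as a black bar. The plasma protein and complement lists lie furthest left (medians -0.69 and -0.61), the oxidative phosphorylation list lies in a narrow band (median -0.26), and the fatty acid oxidation list lies right of 0 (median 0.35).

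Amino acid and ammonia metabolism was divided within itself. Of 46 amino acid breakdown genes 12 were higher and 18 lower (median -0.02). Csad, which makes the precursor of taurine, was at 112.6 and 101.5 CPM against 20.05 and 18.4 CPM (2.49 ± 0.10, adjusted p = 2.85e-10), and Hpd, of tyrosine breakdown, at 3820 and 4218 CPM against 2329 and 2139.8 CPM (0.85 ± 0.05, adjusted p = 2e-08). Amdhd1, the enzyme after Hal and urocanase in histidine breakdown, was at 20.1 and 19.9 CPM against 144.97 and 147.8 CPM (-2.87 ± 0.07, adjusted p = 2.94e-12), and Cth, cystathionine lyase, at 256.7 and 261.4 CPM against 455 and 423 CPM (-0.76 ± 0.06, adjusted p = 3.76e-07). Of 11 urea cycle and ammonia genes outside the classic list, 2 were higher and 3 lower. Otc, ornithine transcarbamylase, was at 563 and 584 CPM against 1149 and 1136 CPM (-0.99 ± 0.05, adjusted p = 2.22e-09), and Aqp8, an aquaporin, at 7.92 and 6.96 CPM against 42.95 and 51.3 CPM (-2.67 ± 0.11, adjusted p = 6.65e-10), while Glud1, glutamate dehydrogenase, was at 362 and 350.4 CPM against 281.2 and 276.8 CPM (0.35 ± 0.06, adjusted p = 0.000375).

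Bile acid genes split evenly, with 11 of 25 higher and 11 lower. Akr1c6, an aldo-keto reductase, was at 2341 and 2466 CPM against 881 and 779.6 CPM (1.53 ± 0.06, adjusted p = 1.96e-10), Hsd3b7, an early enzyme of the pathway, at 438 and 450.4 CPM against 202.1 and 184.6 CPM (1.20 ± 0.06, adjusted p = 5.58e-09), and the transporter Abcc3 at 105.8 and 113.7 CPM against 44.8 and 43.7 CPM (1.31 ± 0.07, adjusted p = 1e-08). Cyp8b1, which makes cholic acid, was at 434 and 425 CPM against 290.3 and 264.9 CPM (0.63 ± 0.06, adjusted p = 3.04e-06). Lower were Cyp39a1, described above, and Nr0b2, the repressor SHP, at 35.4 and 34.1 CPM against 67.5 and 63.3 CPM (-0.91 ± 0.07, adjusted p = 5.29e-07). Slc10a1, the main bile acid uptake carrier, was at 1001 and 1057 CPM against 1102 and 1081 CPM (-0.08 ± 0.05, adjusted p = 0.227) and did not pass the test. Cholesterol synthesis and uptake was as even, with 9 of 28 higher and 9 lower. Abcg8, a sterol exporter, was higher (1.03 ± 0.12) and Idi1, Sqle and Dhcr7 of the synthesis pathway were lower (-0.80 ± 0.07, -0.76 ± 0.14 and -0.71 ± 0.08), while Hsd17b7 of the same pathway was higher (0.86 ± 0.11).

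Drug-metabolising genes had large differences in both directions. Of 66 phase I genes outside the classic list 25 were higher and 18 lower, and of 64 conjugating enzymes and transporters 27 were higher and 16 lower, with medians of 0.03 and 0.22. Some called genes of these lists were rare in single hepatocytes, Cyp2c39 (in 7.10% of cells) and Slc13a3 (6.25%) among them. Among the 62 and 57 counted in at least 10% of cells, 22 and 24 were higher and 18 and 15 lower, a count added after seeing the data. In the other role lists this count left out at most 2 genes called higher, and 1 called lower, outside the receptors and the classic pericentral genes (3 called higher each). Cyp2c39 was at 12.4 and 13.6 CPM against 0.617 and 0.234 CPM (5.06 ± 0.33; 5.75 and 4.38 without CD324+ replicates 1 and 2). Cyp17a1, which makes androgen precursors in other tissues, was at 0.764 and 0.950 CPM against 7.48 and 7.29 CPM (-3.09 ± 0.28, adjusted p = 1.58e-06). Slc13a3, a dicarboxylate carrier, was at 23.2 and 27.98 CPM in CD73+ cells and had 3 CD324+ counts, a ratio of 294.5 (95% counting interval 100.4 to 1431), which was 550.1 without CD324+ replicate 1 and 166.6 without replicate 2. Slc22a7, an organic anion carrier, was at 5.76 and 6.90 CPM against 38.9 and 40.7 CPM (-2.65 ± 0.12, adjusted p = 1.69e-09), and Ugt2b38, a glucuronosyltransferase, at 8.54 and 11.5 CPM against 69.6 and 81.5 CPM (-2.92 ± 0.13, adjusted p = 8.69e-10).

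Haem, iron and vitamin genes differed in both directions. Blvrb, a biliverdin reductase, was at 320.1 and 338.3 CPM against 82.7 and 78.5 CPM (2.03 ± 0.07, adjusted p = 6.72e-11), and Cpox, of haem synthesis, at 77.2 and 74.7 CPM against 26.99 and 23.1 CPM (1.61 ± 0.09, adjusted p = 7.74e-09). Hp, haptoglobin, was at 1719.6 and 1804 CPM against 3742 and 3717 CPM (-1.08 ± 0.04, adjusted p = 7.99e-11), and Slc40a1, the iron exporter ferroportin, at 49.7 and 45.9 CPM against 107.3 and 110.2 CPM (-1.19 ± 0.06, adjusted p = 8.45e-09). Of 30 haem and iron genes 9 were higher and 10 lower (5 higher without CD324+ replicate 1). Of 25 vitamin and selenium genes 6 were higher and 10 lower. The retinol dehydrogenases Rdh9 and Rdh16 were at 11.9 and 12.03 CPM against 0.231 and 0.280 CPM (5.47 ± 0.46, adjusted p = 7.94e-07) and 89.2 and 89.6 CPM against 21.7 and 17.8 CPM (2.20 ± 0.09, adjusted p = 6.01e-10), but Rdh5 of the same enzyme class was at 5.69 and 6.33 CPM against 14.03 and 11.1 CPM (-1.05 ± 0.18, adjusted p = 0.000562), and Gc, the vitamin D carrier of plasma, at 5809 and 6037 CPM against 11667 and 11834 CPM (-0.99 ± 0.03, adjusted p = 1.25e-11). Among 21 apolipoprotein and lipoprotein genes 8 were higher and 9 lower (5 higher without CD73+ replicate 2 or CD324+ replicate 2), with Apoc2, the cofactor of lipoprotein lipase, at 127.5 and 123.6 CPM against 383 and 395 CPM (-1.63 ± 0.07, adjusted p = 6e-10), the reverse of Lpl.

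Receptors for hormones and growth factors were more often higher: 17 of 41 were higher and 4 lower, with a median of 0.25. Among the 37 counted in at least 10% of single hepatocytes 14 were higher and 4 lower. Without CD324+ replicate 2, 11 were higher and 2 lower. Beside Npr2 and Cd36, P2ry14, a nucleotide-sugar receptor, had a ratio of 34.1 (95% counting interval 5.68 to 1393), from 1 CD324+ count, and was not called without CD73+ replicate 2 (adjusted p = 0.0588) or CD324+ replicate 2 (0.0983). The ratio was 12.9 without CD324+ replicate 2. P2ry14 was counted in 0.85% of single hepatocytes. Fgfr2, a fibroblast growth factor receptor, was lower, at 0.972 and 1.20 CPM against 8.95 and 10.3 CPM (-3.14 ± 0.27, adjusted p = 8.3e-07). Egfr (0.12 ± 0.06, adjusted p = 0.178) and Gcgr, the glucagon receptor (-0.11 ± 0.07, adjusted p = 0.287), did not pass the test.

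Genes of the Wnt pathway outside the classic list held 7 higher and 3 lower of 22 (31.8% and 13.6%, median 0.49). The lower share is near that of all genes. Without CD324+ replicate 2, 4 were higher, and without CD73+ replicate 2, 1 was lower. Among the 20 hepatocyte-detected genes of the list, 5 were higher and 3 lower with all libraries. Tnfrsf19 and Wls, both called higher, were not hepatocyte-detected. Tnfrsf19, a known Wnt target, was at 3.19 and 2.72 CPM in CD73+ cells and had 2 CD324+ counts, a ratio of 50.7 (95% counting interval 13.6 to 425). Tle1, a co-repressor, was at 15.6 and 20.2 CPM against 6.79 and 4.72 CPM (1.67 ± 0.20, adjusted p = 2.18e-05). Tcf7l1, a TCF factor known mainly as a repressor, was at 0.625 and 0.127 CPM against 1.93 and 1.73 CPM (-2.29 ± 0.59; -3.77 without CD73+ replicate 1, and -1.53 with an adjusted p of 0.0925 without CD73+ replicate 2). Lgr4, the relative of Lgr5, was at 32.8 and 26.7 CPM against 41.5 and 41.1 CPM (-0.48 ± 0.09, adjusted p = 0.00147), so the 2 receptors differed in opposite directions. Ctnnb1, beta-catenin itself, was at 39.5 and 37.5 CPM against 41.02 and 41.1 CPM (-0.09 ± 0.07, adjusted p = 0.345) and did not pass the test.

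Of 71 transcription factors and nuclear receptors 14 were higher and 16 lower, shares of 19.7% and 22.5% (9 higher without CD324+ replicate 2). Usf1, an E-box factor and another of the 4 factors knocked out in the series, had the largest negative difference of the list. It was at 7.15 and 6.90 CPM in the CD73+ libraries and 37.01 and 37.04 CPM in the CD324+ libraries, with 25.4 and 31.1 CPM in the CD324-;CD73- libraries, a log2 difference of -2.40 ± 0.12, adjusted p = 4.23e-09. The other 2 knocked-out factors, Nr2f2 and Tef, were at 12.01 and 8.23 CPM against 9.18 and 8.97 CPM (0.15 ± 0.19, adjusted p = 0.591) and 36.7 and 30.9 CPM against 27.7 and 28.9 CPM (0.25 ± 0.09, adjusted p = 0.0632). Neither passed the test, and the difference of Nr2f2 was -0.14 without CD73+ replicate 1. Without CD73+ replicate 2, Tef was called at 0.37 (adjusted p = 0.0187), as it was with library sizes taken without the 50 highest genes (0.0338). Tox, an HMG-box factor, was at 6.60 and 8.48 CPM against 0.617 and 0.561 CPM (3.68 ± 0.39, adjusted p = 7.06e-06), and Cebpd at 3.82 and 4.18 CPM against 1.70 and 1.07 CPM (1.57 ± 0.33, adjusted p = 0.00247). Hnf4a and Cebpa, factors of hepatocyte identity, differed by 0.21 ± 0.06 and 0.33 ± 0.07, and Hnf4a was no longer called without CD73+ replicate 2 (adjusted p = 0.0946) or either CD324+ library (0.113 and 0.0817).

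Several smaller programmes were also read. All 6 called of 15 hypoxia genes were higher (3 without CD73+ replicate 2 or CD324+ replicate 2), led by Egln3, an oxygen-sensing hydroxylase (4.79 and 7.03 CPM against 1.47 and 0.981 CPM, 2.32 ± 0.32, adjusted p = 8.49e-05), and Pdk1 (0.58 ± 0.09). Of 33 proteasome genes 12 were higher and none lower (6 higher and 1 lower without CD73+ replicate 2, and 7 higher without CD324+ replicate 2), with Psme4 at 69.5 and 69.96 CPM against 45.2 and 43.3 CPM (0.66 ± 0.07, adjusted p = 4.08e-06) and a list median of 0.13. Ribosomal protein genes were close to even, with 8 of 77 higher and 4 lower (median 0.03; 2 higher without CD73+ replicate 2 and none without either CD324+ library). Of 26 interferon and antigen presentation genes 11 were lower and none higher (median -0.57). CD73+ replicate 2 stood far below replicate 1 for some of them, with Ifit1 at 36.04 and 1.39 CPM and Rsad2 at 17.6 and 0.127 CPM. Without CD73+ replicate 2, 9 were lower and the median was -0.28, and without CD73+ replicate 1, 16 were lower. Without CD324+ replicate 1, 1 was higher and 10 lower. Among those called with all libraries was Irf7, at 21.1 and 20.8 CPM against 48.9 and 47.7 CPM (-1.20 ± 0.07, adjusted p = 2.2e-08). Of 19 cell cycle genes 5 were lower and none higher (2 without CD324+ replicate 2 and 3 without CD73+ replicate 2 or CD324+ replicate 1). Among them Cdkn1a, an inhibitor of the cycle, was at 5.62 and 7.47 CPM against 16.2 and 22.4 CPM (-1.57 ± 0.19, adjusted p = 2.39e-05), and Rrm2, of nucleotide synthesis, at 2.64 and 1.52 CPM against 6.01 and 7.99 CPM (-1.78 ± 0.27, adjusted p = 0.000185).

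Of 19 stress genes of tissue dissociation 3 were higher (15.8%, near the share of all genes) and 5 lower (26.3%). Hspa1b, a heat-shock chaperone, was at 6.87 and 7.03 CPM against 2.62 and 1.59 CPM (1.77 ± 0.26, adjusted p = 0.000184), while Fos, an immediate early gene, was at 9.24 and 9.56 CPM against 22.1 and 19.99 CPM (-1.16 ± 0.14, adjusted p = 2.11e-05) and Mt1 at 58.8 and 67.3 CPM against 347 and 363 CPM (-2.49 ± 0.10, adjusted p = 3.63e-10). Of 10 Ras-ERK feedback genes 3 were higher and 2 lower (1 higher without CD73+ replicate 1 or CD324+ replicate 2), with Dusp6 at 59.2 and 67.05 CPM against 37.1 and 42.98 CPM (0.65 ± 0.08, adjusted p = 4.46e-05). Clock genes were mostly not called (1 higher and 2 lower of 11, with Cry1 at -0.84 ± 0.13 and Nr1d2 at 0.69 ± 0.12), as were the 10 ATF4 genes (1 higher, Aars, 1.04 ± 0.08, and 1 lower). None of 4 Notch genes passed the test. Of 5 carbonic anhydrases outside the classic list, Car3 was higher (0.80 ± 0.04) and Car14 lower (-1.44 ± 0.09).

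Junction genes other than Cdh1 also differed between the ends: 5 of 24 were higher and 11 lower (3 higher without CD73+ replicate 2 or CD324+ replicate 2). Cldn2, a pore-forming claudin, was at 37.4 and 35.3 CPM against 4.78 and 3.04 CPM (3.27 ± 0.19, adjusted p = 1.85e-08), and Cdh2, N-cadherin, at 44.9 and 45.7 CPM against 28.1 and 29.4 CPM (0.65 ± 0.07, adjusted p = 9.96e-06), the reverse of E-cadherin. F11r, a junctional adhesion molecule, was at 31.9 and 28.7 CPM against 73.2 and 68.6 CPM (-1.22 ± 0.08, adjusted p = 3.4e-08). Growth hormone-dependent and sex-biased genes held 12 higher and 9 lower of 28, with Mup17 at 1124 and 622 CPM against 134.4 and 13.7 CPM (3.59 ± 0.73; 5.98 and 2.69 without CD324+ replicates 1 and 2) beside Elovl3, Susd4 and the opposite Mup20.

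The CD324-;CD73- libraries lay nearer to the CD324+ end. On the scale of log2(CPM + 0.5), 88.99% of the hepatocyte-detected genes at least 2-fold higher in CD73+ cells had their CD324-;CD73- mean between the 2 ends. They stood at a median of 23% of the way from CD324+ to CD73+ (quartiles 12.7% and 34.9%). For the lower genes these values were 87.58%, 15.5%, 6.9% and 25.1%. The mean was nearer to CD324+ for 90.52% of the higher and 94.97% of the lower genes. Genes differed in where they stood: Cyp2c69 was 45.6% of the way and Cyp2e1, a P450 that oxidises ethanol, 43.1%, whereas Glul was 13.9% and Cd36 0.7%. Among lower genes Cyp39a1 was 19.6%, and Sfxn1 3.6%. These positions describe 2 libraries, and no test was run on them.

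**Figure D4:**
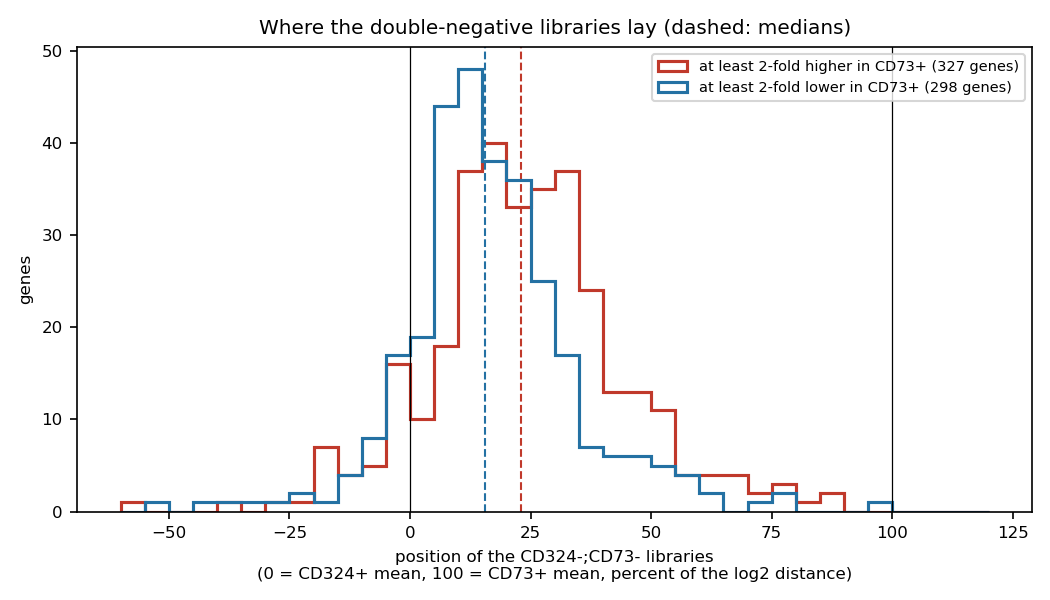
Number of genes by the position of the CD324-;CD73- mean on the log2(CPM + 0.5) distance from the CD324+ mean (0) to the CD73+ mean (100), in bins of 5 percent, for hepatocyte-detected genes at least 2-fold higher or lower in CD73+ cells. Both distributions peak near the CD324+ end, with medians (dashed) of 23% and 15.5%.

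The single hepatocytes, whose labels name DNA content and neither CD73 nor CD324, gave a second view of the same genes. Their counts come from mSTRT-seq, a different protocol from that of the bulk libraries, and what this adds to any disagreement was not tested. Each cell was given a lobule score, the mean log2(CPM + 1) of 10 pericentral landmark genes minus that of 10 periportal ones, and each gene's Spearman correlation (rho) with the score was taken across cells. Cells are not replicates, and the score and each gene share a cell's depth (medians of 149666, 148165 and 143795 counts in 2N, 4N and 8N cells), so rho is a description with no p. The score spread less in 2N cells (SD 2.72) than in 4N (4.80) and 8N cells (4.36).

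Over 9759 genes outside other-cell lists and counted in at least 10% of cells, the median rho was -0.02 in 2N, 0.01 in 4N and 0.07 in 8N cells. It was positive for 43.32%, 53.19% and 67.63% of them. Of such genes at least 2-fold higher in CD73+ cells, rho was positive for 67.85%, 86.75% and 91.48%. Of the lower genes it was negative for 71.97%, 90.66% and 87.46%, against 56.33%, 46.38% and 32.18% of all. The 15 named higher genes had a median rho of 0.24, 0.63 and 0.62, and the 15 lower genes -0.10, -0.43 and -0.43. In the cells with at least the median total count, the medians in 4N and 8N cells were 0.68 and 0.77 for the higher genes. For the lower genes they were -0.52 and -0.51, and 1 of these genes then had a positive value (0.065 in 4N and 0.085 in 8N cells). In such 2N cells the medians were 0.145 over 9 higher and -0.136 over 14 lower genes, those counted in at least 5 cells. In all 2N cells 5 of the 15 lower genes had a positive rho, up to 0.36, and 1 of 14 higher genes a negative one. Susd4 was the most graded of the higher genes, at 0.75 in 4N and 0.81 in 8N cells, followed by Nxpe2 at 0.70 and 0.74. Among lower genes Cryl1 was at -0.69 and -0.57 and Sfxn1 at -0.63 and -0.69.

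A few genes with large bulk differences had little gradient across cells. Cd36 was counted in 48.01% of cells and had a rho of -0.05, 0.21 and -0.04, and Cyp2a22, in 18.18% of cells, 0.03, 0.05 and 0.16. Cd36 is also made by endothelial cells and macrophages, whose markers were higher in the CD73+ libraries; their part in its difference was not tested. Usf1 had a rho of -0.19, -0.52 and -0.56, of the same sign as in bulk.

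**Figure D5:**
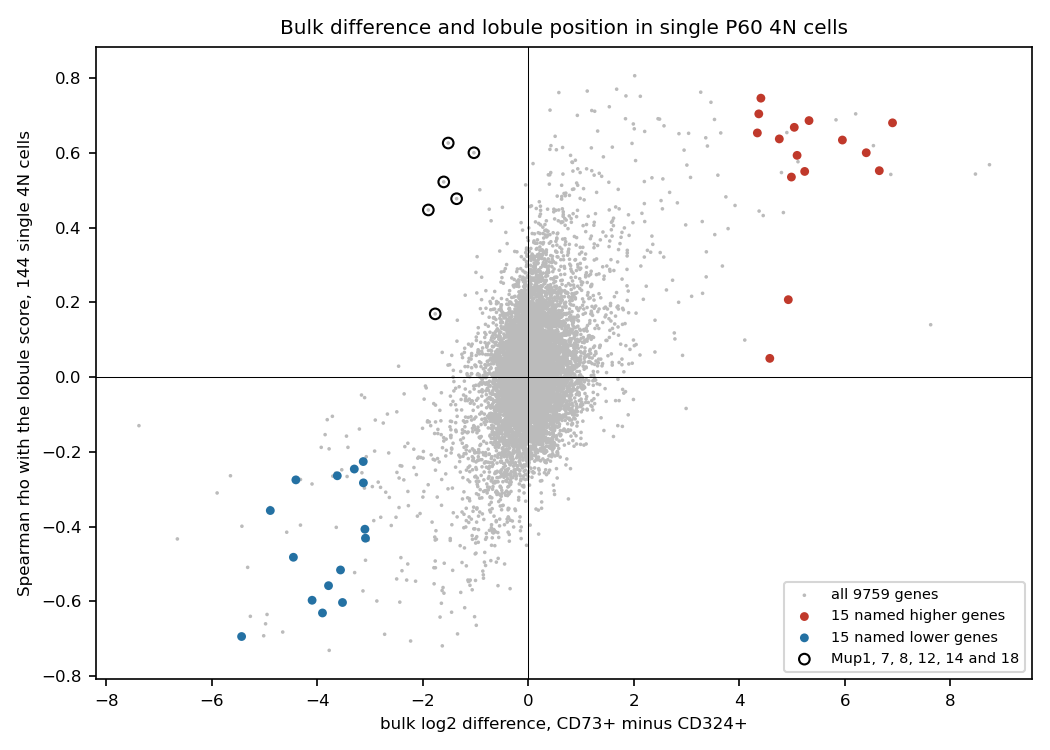
Bulk log2 difference (CD73+ minus CD324+) against the Spearman rho of each gene with the lobule score in single 4N cells, for 9759 genes outside other-cell lists and counted in at least 10% of cells, landmark genes left out. The 15 named higher genes (red) lie upper right with a median rho of 0.63 and the 15 lower genes (blue) lower left with a median of -0.43, while 6 Mup genes (open circles) lie upper left.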

How the data were processed

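The 4 CD73+ and CD324+ libraries were poly(A)-selected and made with a directional kit, per the labels' protocols. The authors deposited raw counts for 40824 gene symbols and 92 spike-in entries (0 counts here). The submitters' processing notes name TopHat2 2.1.0, HISAT2 2.1.0, HTSeq 0.6.0 and featureCounts 1.5.3 and 2.0.0, among others, and the builds GRCm38 and mm10, with no role. Which counter was used, and how it treated strand and shared reads, is not given here, so members of the Mup, Cyp2c and Cyp2a families, and antisense genes, are uncertain. The 6 bulk libraries were fitted together with edgeR 4.0.16 (R 4.3.3): TMM, filterByExpr, quasi-likelihood F test, 3 residual degrees of freedom, Benjamini-Hochberg adjustment over 10984 genes and a threshold of 0.05. The common biological coefficient of variation was 0.094, and replicates correlated at 0.987 to 0.989 (Spearman) yet differed beyond sampling noise (chi-square per degree of freedom 4.65 to 16.6). Counts are not independent molecules, so counting intervals and the floor of 3 counts cover counting error only. Of the single-cell columns, 1817 were not used. Coordinates are from GENCODE M21 (10436 of 10984 symbols matched) and promoters from RefSeq. Genes were named by rule: the 15 largest differences in each direction (adjusted p under 0.05, no overlap, 10 CPM, outside other-cell and classic lists, no clone names, counted in 10% of cells), up to 3 called genes per direction and list, markers and landmarks. Alb, the other 3 knocked-out factors, Mup and interferon genes and a few receptors, enzymes and plasma proteins were chosen after their values were seen. The members and lists were chosen with earlier results of these data known. The code was tested on simulated data. Alternatives were DESeq2 1.42.0, its size factors in edgeR, no filter, only the 4 libraries, a replicate block, other-cell genes left out, library sizes without the 50 highest genes, each library left out, a test against a fold of 1.5, and deeper cells for the score. Some genes that the rule names are not reported here.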

Additional observations from a re-analysis of the deposited data

How the results depend on the processing

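Numbers of genes called stayed within 1.5 times of those reported under the alternatives run, with these exceptions. DESeq2 called 1018 genes higher in CD73+ cells, against 1653, and 65.9% of all genes called by edgeR. Of the named genes, 31 lost their call with DESeq2 and 17 to 30 with 1 library left out. Among genes outside other-cell lists and counted in 10% of single cells, 3.34% were at least 2-fold higher, against 5.13% of all genes tested, an alternative added after seeing the data. With 1 library left out at a time, 1146 to 1340 genes were higher and 1149 to 1280 lower. These left-out fits had 2 residual degrees of freedom, the lone library of a group was assumed to vary like the others, and 68.5% to 75.6% of the reported calls were shared. The replicate numbers were not treated as pairs, and no label says whether equal numbers share an animal. Deviations of same-numbered libraries correlated at 0.102, 0.066 and 0.124 over the 3 group pairs. Such a correlation over all genes tested cannot tell whether those libraries share an animal or a batch. A replicate block called 1611 higher and 1501 lower genes and shared 95.6% of the reported calls, and Ifit1 and Rsad2 were then called (adjusted p = 0.00597 and 0.000856). Library sizes without the 50 highest genes gave 1873 and 1294. The median log2 difference of all genes lay between 0.009 and 0.067 in all fits. Among the named genes, the only ones read for this, signs turned only for genes not called with all libraries. Over the fits that left out 1 library, the lowest and highest differences were -0.14 and 0.40 for Nr2f2 (lowest without CD73+ replicate 1), -0.01 and 0.21 for Dio1, -2.83 and 0.08 for Mup16, -4.63 and 0.53 for Ifit1, -3.69 and 1.03 for Ifit3 and -7.52 and 0.99 for Rsad2. The turned values were -0.01, 0.08, 0.07 and 0.46 without CD73+ replicate 2, and 0.53, 1.03 and 0.99 without CD324+ replicate 1. The cause was not tested. Genes under about 1 CPM rest on few counts.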

Other observations

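Major urinary protein genes, which are induced by growth hormone in male liver, differed widely between the 2 CD73+ libraries. Mup7 was at 5167 and 764 CPM in the CD73+ libraries, 8337 and 8677 in the CD324+ libraries and 8484 and 7757 in the CD324-;CD73- libraries. Mup14 was at 1536 and 390.4, 2825 and 3036 and 2298 and 2578 CPM, and Mup12 at 48.1 and 9.69, 112.6 and 100.5 and 102.3 and 123.1 CPM. In each case CD73+ replicate 2 was the low library. The log2 differences were -1.52 ± 0.52 (adjusted p = 0.0427), -1.61 ± 0.39 and -1.90 ± 0.39, and without CD73+ replicate 2 they were -0.72, -0.94 and -1.15, still called. With DESeq2 none of the 3 was called (adjusted p = 0.121, 0.0892 and 0.125). Mup7 was also not called in a fit of the 4 libraries only (0.0819) or with library sizes taken without the 50 highest genes (0.0560). Mup19 was at 1798 and 6.01 CPM in CD73+ cells and 13.5 and 0.187 in CD324+ cells, and its difference of 7.27 ± 1.72 was 0.03 (adjusted p = 0.985) without CD73+ replicate 1, 8.31 without CD73+ replicate 2, and 12.18 and 6.06 without CD324+ replicates 1 and 2. Without CD73+ replicate 1 the differences were -3.48, -2.91 and -3.46 for the first 3 genes. Reads of these near-identical genes may have been assigned to any member.

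Across single cells Mup7, Mup14, Mup12 and Mup1 had the opposite sign. In bulk Mup1 differed by -1.03 ± 0.28, adjusted p = 0.0131, which was -1.89 without CD73+ replicate 1, and it was not called by DESeq2 (adjusted p = 0.199). Mup7 had a rho with the lobule score of 0.21, 0.63 and 0.55 in 2N, 4N and 8N cells, Mup14 0.26, 0.52 and 0.54, Mup1 0.33, 0.60 and 0.53, and Mup12 0.36, 0.45 and 0.46. They were 4 of 26 genes that were at least 2-fold different in bulk and had the opposite sign of rho in both 4N and 8N cells. Mup18 and Mup8 were in that set too. Their bulk differences were -1.36 ± 0.21 (adjusted p = 0.000296) and -1.77 ± 0.27 (adjusted p = 0.000216). In 2N, 4N and 8N cells Mup18 had a rho of 0.25, 0.48 and 0.35, and Mup8 0.27, 0.17 and 0.05. Mup20, with a bulk difference of -3.13 ± 0.09, had a rho of 0.06, -0.23 and -0.22. Mup19, higher in CD73+ cells, was counted in 4.55% of cells and had a rho of 0.34 and 0.37 in 4N and 8N cells.

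The interferon-induced genes Ifit1 and Rsad2 were higher in replicate 1 than in replicate 2 of all 3 bulk groups. Ifit1 was at 36.04 and 1.39 CPM in CD73+, 58.2 and 12.8 in CD324+ and 6.07 and 0.952 in CD324-;CD73- libraries, and Rsad2 at 17.6 and 0.127, 46.7 and 4.39 and 8.22 and 0.825 CPM. Their differences between the sorted ends, -0.90 ± 0.83, adjusted p = 0.471 and -1.49 ± 1.06, adjusted p = 0.330, did not pass the test. With no filter on low counts they did (adjusted p = 2.23e-11 and 5.75e-18). The standard errors of that fit were only 0.13 and 0.17, although the CD73+ replicates differed as widely as given above. Those p values are therefore not read as a difference between the ends.

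Lgals1 and Cyr61, chosen after their values were seen and which stromal cells also make, were at 34.4 and 33.997 CPM against 3.93 and 2.24 CPM and 32.1 and 27.3 CPM against 2.39 and 3.13 CPM, and were counted in 40.06% and 25.85% of single hepatocytes with a rho of 0.38 and 0.62 in 4N cells.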
